A study of Homo sapiens with 6 samples.

Results

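The genes described here are 10 splicing factor genes with arginine-serine repeats: the SR protein genes SRSF1, SRSF2, SRSF3, SRSF4, SRSF5, SRSF6, SRSF7 and SRSF11, and the genes of the SR-related matrix proteins SRRM1 and SRRM2. They were taken by symbol from a fixed list, and all 10 were found among the 23284 gene symbols of the expression tables and among the 11134 symbols that passed the filter on low values. The list was chosen by the measured difference in FPKM of SRRM2 and the SR protein genes between the groups, so the differences between the groups are given for the 10 genes as a description and without a test. The tables came from GM12873, a human B-lymphoblastoid cell line, meaning B cells immortalized with Epstein-Barr virus. Washed cells went directly into trizol in the 3 control samples. In the 3 lyophilized samples the cells were freeze-dried in PBS with 0.1 M trehalose, a sugar that protects cells during drying, and were kept dry at room temperature for 2 weeks before trizol was added. Each lyophilized sample is paired by its label with the control of the same number. All samples are of 1 cell line, the controls received no trehalose, and the effects of trehalose, drying and storage cannot be told apart. The poly(A) RNA was sequenced as single reads of 75 bases, and the deposited values are FPKM (fragments per kilobase of transcript and mapped fragments), so that a level is a share of the sequenced RNA per transcript length and not a number of molecules per cell.

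SR proteins bind exonic sequences of the pre-mRNA through RNA recognition motifs and recruit the splicing machinery through a domain rich in arginine-serine dipeptides, the RS domain. Phosphorylation of this domain by SRPK and CLK kinases controls their entry into the nucleus and their release from nuclear speckles, the compartments in which splicing factors are stored. SRRM1 and SRRM2 are much larger RS-rich proteins without an RNA recognition motif; SRRM1 is a splicing coactivator tied to the exon junction complex, and SRRM2, a component of the spliceosome, is together with SON a scaffold of the speckles.

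The RS domain is the sequence feature that the 10 genes share, and its coding sequence shows how differently the genes spell the same repeat. The windows below are, for each gene, the 30 coding bases within 1 exon with the most adjacent pairs of an arginine and a serine codon, which need not alternate throughout, read 5′ to 3′ on the coding strand of GRCh37, with the arginine codons in capitals. They are shown for SRRM2 and SRRM1, for SRSF3, the SRSF gene whose difference between the groups was farthest from that of SRRM2, and for 4 SRSF genes that span the range of GC content of the windows.
SRSF1: AGAtctCGAtctCGAagcCGTagtCGTagc
SRSF2: CGCagcCGAtccCGGagtCGGagtCGTtcc
SRSF3: AGAAGGAGAagcttctctCGCagcCGGagc
SRSF4: ggcagcAGGagcCGGagcAGGagcCGCagc
SRSF11: tcaAGAtcaAGAtcaCGTtctAGGAGGAGG
SRRM1: CGAtctCGGtcaCGCtccaaatcaAGAtcc
SRRM2: CGAAGAcagCGGagcCGGtcaAGGtcgCGG
The SRSF1 window lies in the last of 4 exons, at chr17:56082875-56082904 on the minus strand, and the SRSF2 window in exon 2 of 3, at chr17:74732501-74732530 on the minus strand. The SRSF3 window is in exon 4 of 6, at chr6:36568936-36568965 on the plus strand. The SRSF4 window is in the last of 6 exons, at chr1:29475363-29475392 on the minus strand, and the SRSF11 window in exon 7 of 12, at chr1:70705148-70705177 on the plus strand. The SRRM1 window is in exon 7 of 17, at chr1:24979028-24979057 on the plus strand, and the SRRM2 window in exon 11 of 15, at chr16:2815927-2815956 on the plus strand. The GC content of the windows was 46.7% in SRSF11, 53.3% in SRSF1 and SRRM1, 60.0% in SRSF3, 70.0% in SRSF2 and SRRM2, and 76.7% in SRSF4. The SRSF4 window was thus more GC-rich than that of SRRM2, and the SRSF2 window equally so.

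The working description of SRRM2 as long and GC-rich, and of the SR protein genes as short, held in part. By the representative GENCODE transcript, SRRM2 had 9044 nt, more than 95.2% of the tested genes, of which 8259 nt are coding, and its coding sequence held 331 adjacent pairs of an arginine and a serine codon. The SRSF transcripts ran from 1496 nt in SRSF5 to 5343 nt in SRSF1, with a median of 3157.5 nt against 3115 nt over all tested genes, so they were short beside SRRM2 but not beside other genes. Their coding sequences ran from 495 nt in SRSF3 to 1485 nt in SRSF4 and held between 25 pairs in SRSF3 and 113 pairs in SRSF4. SRRM1 had a transcript of 3735 nt and 52 pairs, both within the range of the SRSF genes. Its coding sequence, at 2715 nt, was longer than that of any SRSF gene and shorter than that of SRRM2.

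In GC content the 10 genes stood in a different order by whole transcript and by coding sequence. The SRRM2 transcript had 56.0% GC, above the 51.4% of SRSF4, the 49.6% of SRSF2 and the 45.8% of SRRM1, while SRSF5 had 43.0% and SRSF1, SRSF3, SRSF6, SRSF7 and SRSF11 had 38.7% to 40.0%. The coding sequence of SRRM2, at 55.6%, was less GC-rich than that of SRSF2, at 66.5%, and close to that of SRSF1, at 55.2%. The 3′ untranslated region was 4487 nt long with 35.3% GC in SRSF1 and 3611 nt long with 37.3% GC in SRSF3, but 545 nt long with 50.8% GC in SRRM2. All 8 SRSF genes and SRRM1 had 31.5% to 39.0% GC in that region.

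In the whole series, the summed FPKM per library ranged from 468790 to 508465 for controls and from 489828 to 524744 for lyophilized cells. The tables hold no counts, but the steps between the lowest FPKM values placed the depth of the other samples at 1.38 to 1.90 times that of control 1. The 7 B-lymphoid markers reported here (such as MS4A1, CD79A and PAX5) were above an FPKM of 1 in every sample, with a summed level of 922 to 1272 among controls and 933 to 1278 after lyophilization. No marker of T cells, monocytes, erythroid cells or fibroblasts exceeded an FPKM of 0.607 in any sample, and of the 3 NK cell markers only NKG7 was above 1, at up to 7.74.

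Expression of the 10 genes in the controls spanned 5.18-fold, from a mean FPKM of 26.3 in SRRM1 to 136 in SRSF2, and all of them were above 75.9% or more of the tested genes. The order from high to low was SRSF2, SRSF5, SRRM2, SRSF3, SRSF7, SRSF1, SRSF11, SRSF4, SRSF6 and SRRM1. Of the 9 neighbours in this order, only SRSF5 over SRRM2 and SRSF4 over SRSF6 had control ranges that did not overlap. The ranges of the other neighbours overlapped, but SRSF3 was above SRSF7 and SRSF6 above SRRM1 in each of the 3 controls, so 4 of the 9 pairs kept their order in every control.

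SRRM2 (chr16:2802330-2821413, plus strand, GRCh37) was the gene of the 10 with the largest difference between the groups. Its FPKM was 69.4, 79.2 and 82.1 in controls 1 to 3, against 35.2, 37.6 and 40.0 in their lyophilized partners. Every lyophilized sample lay below every control, which held for 12.6% of all tested genes (9.66% lay wholly above) and for none of the other 9. Lyophilized cells had a mean of 37.6 ± 2.42 (SD, n = 3) against 76.9 ± 6.67 (SD, n = 3) for controls, which is 48.9% of the control level. The log2 difference of lyophilized minus control, on the log2(FPKM + 0.1) scale, was -1.03 ± 0.12 (SE) and came to -0.98, -1.07 and -1.03 within pairs 1, 2 and 3. Each SE printed after ± in the text is from the fit without the pairing. By size of the fall SRRM2 stood at position 58 among the 11134 genes. A lower level in these bulk samples cannot tell fewer cells containing the RNA from less RNA per cell.

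**Figure D1:**
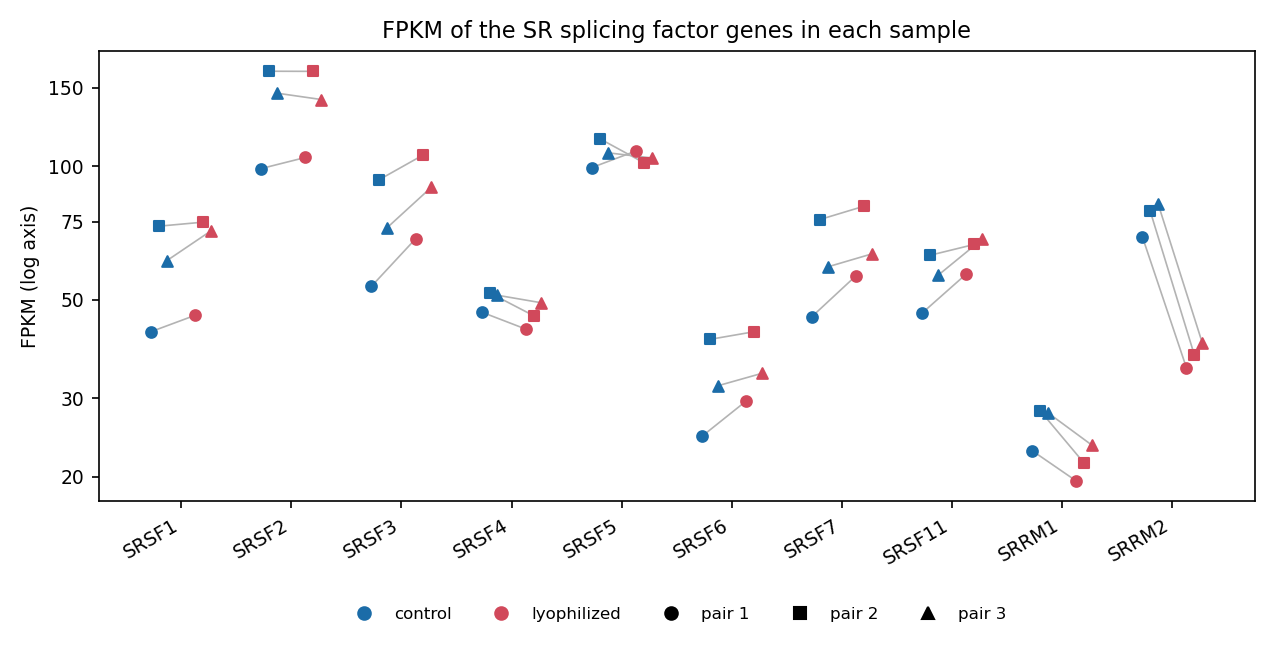
FPKM (logarithmic axis) of the 10 genes in each of the 3 control and 3 lyophilized samples, 1 point per sample, with a line joining the samples of a pair. The SRRM2 points of the lyophilized samples, between 35.2 and 40.0, lie apart from those of the controls, between 69.4 and 82.1, whereas the points of the groups overlap for the other 9 genes.

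SRRM1 (chr1:24969594-24999772, plus strand) was lower in the lyophilized sample of each pair as well, by a smaller amount. Its FPKM was 22.9, 28.1 and 27.8 in the controls, against 19.5, 21.4 and 23.5 in their partners. Only the highest lyophilized sample reached into the control range. The log2 difference was -0.29 ± 0.13 (SE), with -0.23, -0.39 and -0.24 in the pairs.

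Of the SR protein genes, 5 had higher values after lyophilization in each of the 3 pairs, which held for 33.4% of all tested genes: SRSF1, SRSF3, SRSF6, SRSF7 and SRSF11. The largest of these differences was that of SRSF3 (chr6:36562090-36572244, plus strand), the smallest SR protein, which also couples splicing to mRNA export. Its FPKM was 53.6, 93.2 and 72.7 in the controls, against 68.5, 106 and 89.6 in their partners, so the groups overlapped although each pair differed in the same direction. The log2 differences were 0.35, 0.18 and 0.30 in the pairs, with a mean of 0.28 ± 0.23 (SE without the pairing).

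SRSF11 (chr1:70671365-70717701, plus strand), an SR-related protein known for promoting the inclusion of short exons, came next. Its FPKM was 46.6, 63.0 and 56.7 in the controls, against 57.1, 66.6 and 68.4 in their partners, a log2 difference of 0.21 ± 0.14 (SE). Both groups had their lowest value in sample 1.

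SRSF7 (chr2:38970741-38978636, minus strand), an SR protein with a zinc knuckle that acts in splicing and export, had an FPKM of 45.8, 75.8 and 59.3 in the controls, against 56.6, 81.2 and 63.4 in their partners. SRSF6 (chr20:42086504-42092244, plus strand), an SR protein with paired RNA recognition motifs, had 24.6, 40.7 and 32.0 against 29.5, 42.4 and 34.1. SRSF1 (chr17:56078280-56084707, minus strand), the splicing activator also known as ASF/SF2, had 42.4, 73.2 and 61.3 against 46.1, 74.8 and 71.5. In each of the 3 genes the range within a group was wider than any difference within a pair. The log2 differences were 0.17 ± 0.21 (SE) for SRSF7, 0.14 ± 0.21 (SE) for SRSF6 and 0.12 ± 0.25 (SE) for SRSF1, without the pairing. With the pair as a block the SEs were 0.059, 0.063 and 0.056.

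The remaining 3 SR protein genes had the smallest differences or lower values in the lyophilized samples. SRSF2 (chr17:74730197-74733493, minus strand), a speckle protein often called SC35, had an FPKM of 98.7, 163 and 146 in the controls, against 105, 163 and 141 in their partners, a log2 difference of 0.01 ± 0.23 (SE). SRSF5 (chr14:70233829-70238722, plus strand), whose expression responds to growth signals, had an FPKM of 99.2, 115 and 107 against 108, 102 and 104, a log2 difference of -0.03 ± 0.11 (SE). Both were higher in some pairs and lower in others. SRSF4 (chr1:29474250-29508637, minus strand), the SRSF gene here with the most arginine-serine codon pairs, had 46.9, 51.8 and 51.2 against 43.0, 46.0 and 49.2. It was lower in all 3 pairs, with a log2 difference of -0.12 ± 0.11 (SE). With SRRM1 and SRRM2, 3 of the 10 genes were lower in every pair, against 28.8% of all tested genes.

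By the fit over all genes (limma on log2(FPKM + 0.1), Benjamini-Hochberg adjusted p of 0.05), counted here as a description, SRRM2 alone of the 10 was past the threshold, as lower, where 0.557% of the tested genes were called lower and 0.018% higher. With the pair as a block, SRRM2 and SRRM1 were past it as lower and SRSF3 and SRSF11 as higher, where 14.9% of all genes were called lower and 15.9% higher (30.7% in either direction). These counts are no test of the 10 genes, singly or as a group, since the list was made from this contrast. Without control or lyophilized sample 1, 2 or 3, each left out in turn, the fit without the block called neither SRRM2 nor any other gene at an adjusted p of 0.05, with 879 to 2098 genes at an unadjusted p under 0.05. With the block, leaving out pair 3 ended the call of SRRM1, and leaving out pair 1 or pair 3 ended that of SRSF11.

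**Figure D2:**
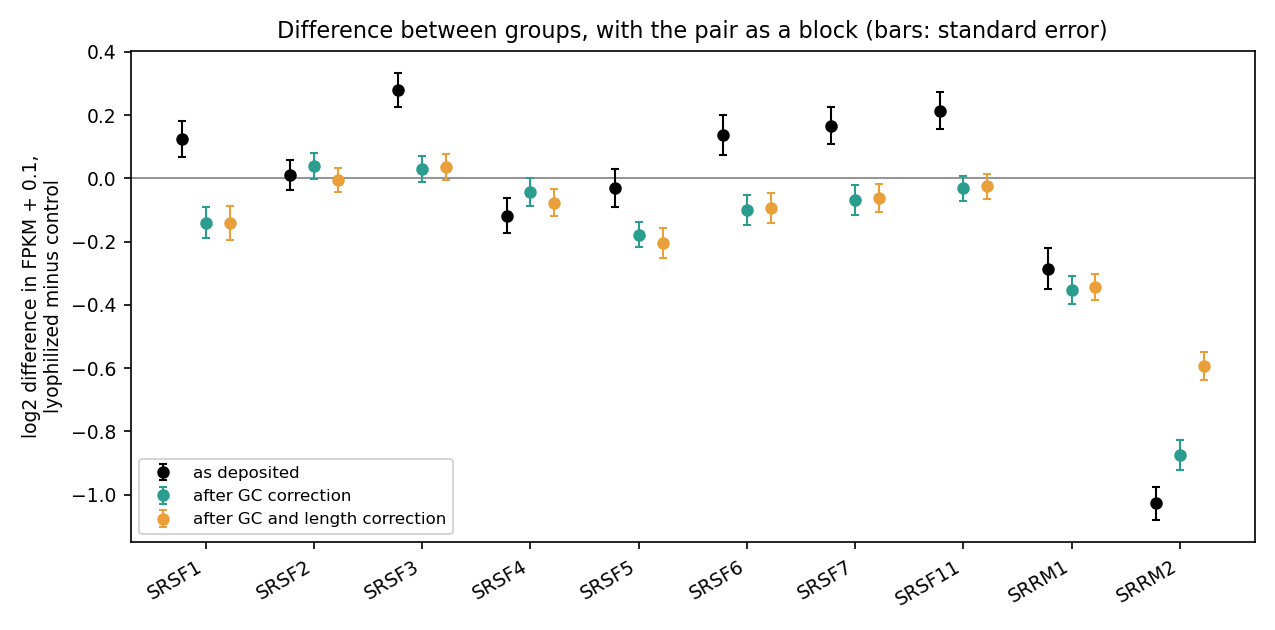
Log2 difference of lyophilized minus control for the 10 genes in the fit with the pair as a block, from the FPKM as deposited and after subtraction of the GC curve and of the GC and length surface, with standard errors. SRRM2 lies at -1.03, -0.87 and -0.59 in the 3 versions, and SRSF3 moves from 0.28 to 0.03 with the GC curve.

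SRRM2 was set against the SRSF genes within each sample, which removes any factor common to a library. The FPKM of SRRM2 was 1.48, 1.06 and 1.36 times the median of the 8 SRSF genes in controls 1 to 3, and 0.620, 0.483 and 0.573 times that median in their lyophilized partners. The log2 ratio thus changed by -1.26, -1.14 and -1.25 in the pairs, a mean of -1.21 with an SD of 0.07 (n = 3 pairs). For SRRM1 the same change was -0.51, -0.46 and -0.45, a mean of -0.47 with an SD of 0.03. In every control SRRM2 ranked at position 3 or 4 among the 10 genes, and in every lyophilized sample at position 8 or 9. Against single SRSF genes, the change per pair ran from -0.85 for a pair of SRSF4 to -1.34 for a pair of SRSF3.

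**Figure D3:**
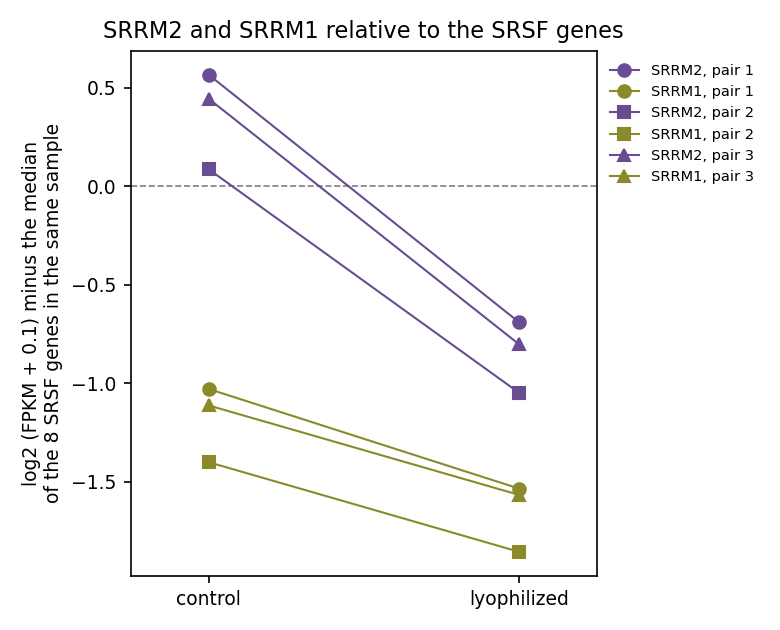
Log2 ratio of the FPKM of SRRM2 and of SRRM1 to the median of the 8 SRSF genes within each sample, with a line joining the control and the lyophilized sample of a pair. The SRRM2 ratio lies between 0.09 and 0.57 for controls and between -1.05 and -0.69 after lyophilization.

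The spread between samples of the same group was larger than the difference between the groups for most SRSF genes. Control 1 had the lowest control value in 10 of 10 genes, against 55.5% of all tested genes. Lyophilized sample 1 had the lowest of its group in 9 of 10, against 50.9% of all tested genes, SRSF5 being the exception. The order control 2, control 3, control 1 held in all 8 SRSF genes and in 38.7% of all genes. SRSF3 was 1.74 times as high in control 2 as in control 1, SRSF1 1.73 times and SRSF2 1.66 times, and SRSF6 and SRSF7 were 1.65 times as high, whereas the median tested gene was 1.10 times as high. SRSF4, SRRM2, SRSF5 and SRRM1 had ratios of 1.11, 1.14, 1.16 and 1.23. In the lyophilized samples the ratio of sample 2 to sample 1 was 1.62 for SRSF1, 1.56 for SRSF2 and 1.55 for SRSF3, and 1.07 for SRSF4 and for SRRM2. The median tested gene had a ratio of 1.05 there. The genes with wide spread in the controls were therefore widely spread in the lyophilized samples too. The coefficient of variation over the controls was 24.6% to 27.1% in SRSF1, SRSF2, SRSF3, SRSF6 and SRSF7, and 5.36% to 14.8% in the other 5 genes, against a median of 14.0% over all genes. Control 1 was also the shallowest library, and the part of depth in this pattern was not tested.

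**Figure D4:**
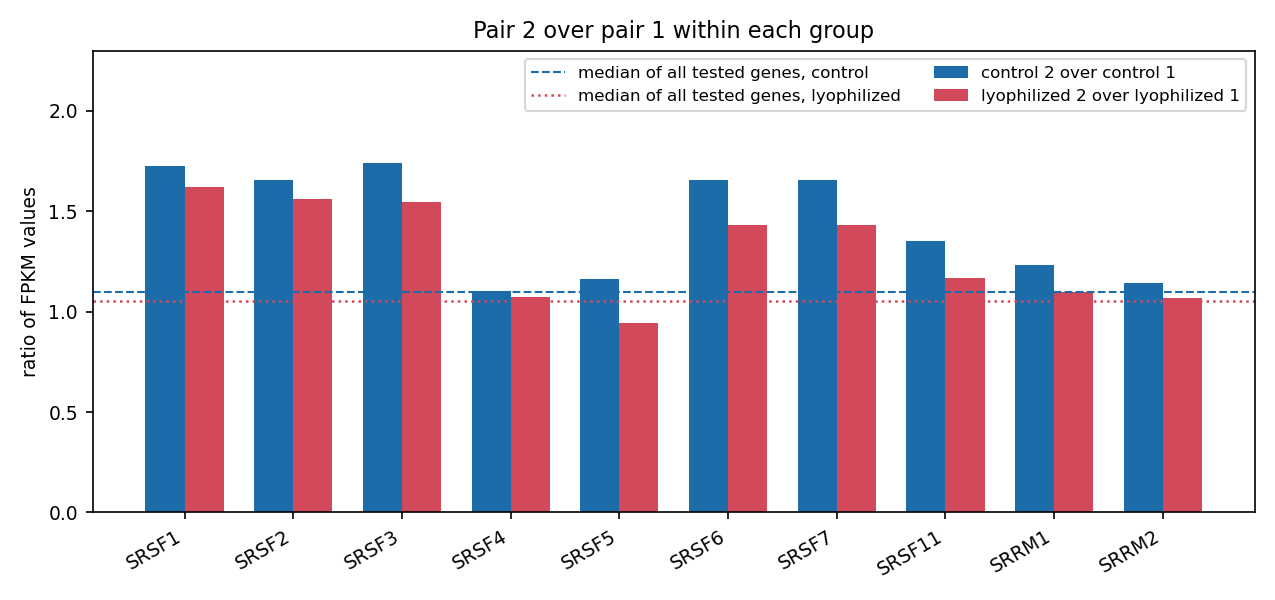
Ratio of the FPKM of sample 2 to that of sample 1 for the 10 genes, within the controls and within the lyophilized samples. SRSF1, SRSF2, SRSF3, SRSF6 and SRSF7 have ratios of 1.65 to 1.74 among controls and 1.43 to 1.62 after lyophilization, and SRSF4 and SRRM2 lie between 1.07 and 1.14 in both.

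Genes with GC-rich transcripts had lower values after lyophilization. Over the 10 genes Spearman's rho of the log2 difference with GC content was -0.81 (n = 10), and with transcript length 0.08. The list was made from this difference, so these values over the 10 genes are a description and no test. Over all 10866 tested genes with a representative transcript the values were -0.76 and 0.05, with genes as points that share the same 6 libraries. The 5 SRSF genes that were higher in every pair all had transcripts of at most 40.0% GC, and SRRM2 had the highest GC content of the 10.

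**Figure D5:**
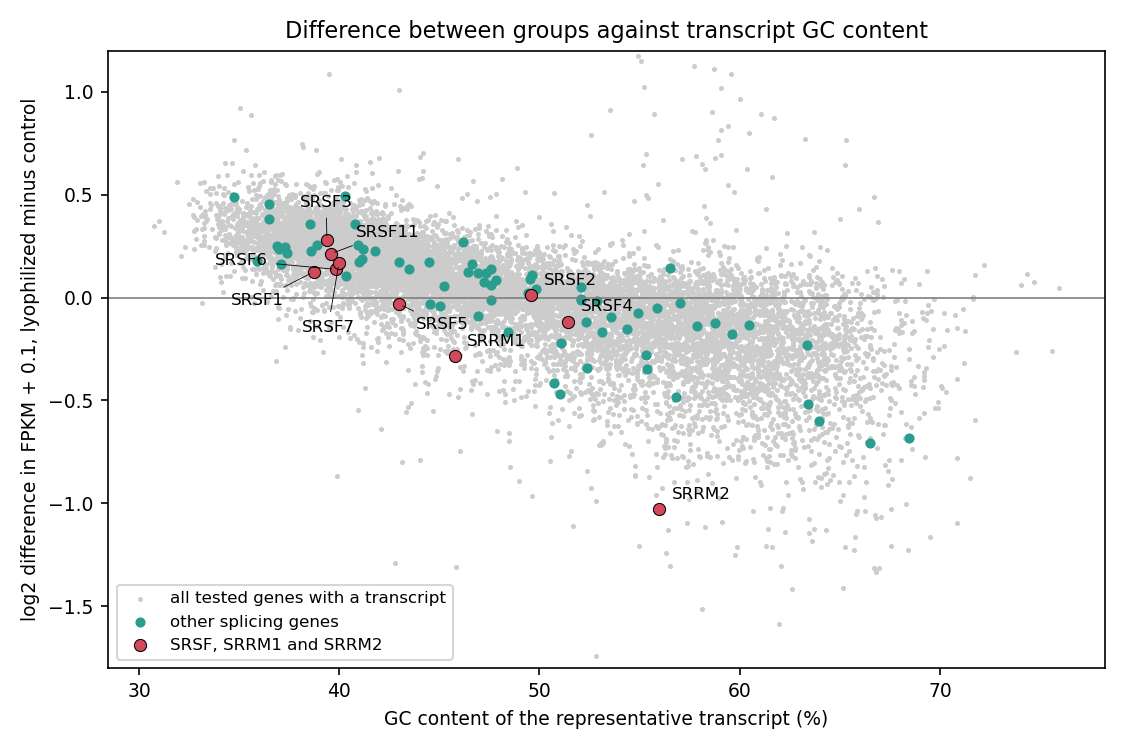
Log2 difference of lyophilized minus control against the GC content (%) of the representative transcript, with all tested genes in grey, 70 other splicing genes in green and the 10 genes in red. SRRM2, at 56.0% GC and -1.03, lies below most genes of like GC content; 17 genes lie outside the plotted range.

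In each sample a curve over GC content was fitted to the deviations of log2(FPKM + 0.1) from each gene's mean over all samples. The curve was subtracted before the fit with the pair as a block. Any difference between the groups that follows GC content, whatever its origin, is therefore removed with the curve. The part of the log2 difference removed with the curve was 0.23 to 0.26 in SRSF1, SRSF3, SRSF6, SRSF7 and SRSF11, -0.15 in SRRM2 and 0.07 in SRRM1. After this subtraction SRSF3 had a log2 difference of 0.03 and SRSF11 one of -0.03, and 6 of the 8 SRSF genes had values below 0. Again as a description, SRRM2 (-0.87), SRRM1 (-0.35) and SRSF5 (-0.18) were past the threshold as lower, where 7.54% of the tested genes were called lower and 9.45% higher. With length added to the GC curve, SRRM2 had -0.59 and SRRM1 -0.34, both past the threshold, and SRSF5 had -0.21 and was not, where 3.07% of the genes were called lower and 2.64% higher (5.72% in either direction). The GC-corrected values of SRSF5 and SRSF2 depended on the transcript used. An alternative chosen after seeing the data took GC content from the longest coding transcript, without length. There SRSF5 had -0.03 and was not past the threshold, and SRSF2 moved from 0.04 to -0.06. SRRM2 (-0.88) and SRRM1 (-0.33) were past it as lower, where 851 of 10866 genes were called lower and 1098 higher. The log2 difference of SRRM2 was below 0 in each version, at a size that depended on the correction.

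Not every read of these genes can be placed at a single locus, or on a single strand, by its sequence. Of the 75-base stretches of the representative transcript, 14.2% in SRRM1, 4.98% in SRSF6 and 1.83% in SRSF3 occur elsewhere in the genome, and 0 in the other 7 genes. The authors kept unique alignments, so reads from these stretches may be missing from the FPKM, which was not tested. Annotated genes lie across from 6 of the 10 genes on the opposite strand, among them MFSD11 for SRSF2 and SRRM2-AS1 for SRRM2, and the library kit does not mark strand. MFSD11 was low beside SRSF2, with an FPKM of 4.22 to 5.07 among controls and 4.05 to 4.61 after lyophilization. No level of SRRM2-AS1 is given here.

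The wider splicing machinery was read from 74 genes in 5 lists drawn up by function, of which 70 passed the filter. Without the block, 2 of the 70 were called, both lower: SF3A2, a U2 snRNP subunit, and SCAF1, an RS-rich protein that binds the tail of RNA polymerase II. SF3A2 had a mean FPKM of 44.1 ± 0.675 (SD, n = 3) among controls and 27.0 ± 1.13 after lyophilization, a log2 difference of -0.71 (limma, adjusted p = 0.0374). SCAF1 had 15.6 ± 0.203 and 9.65 ± 0.465, a log2 difference of -0.68 (limma, adjusted p = 0.0402). With the block, 12 of the 70 were called lower and 11 higher, against the 14.9% and 15.9% of all genes. The median log2 difference was 0.06 over the 70 genes, 0.13 over the 8 SRSF genes and 0.04 over all genes.

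Among the other SR and RS-domain proteins, 21 of 24 passed the filter and 3 were lower and 6 higher with the block, where 14.9% of all genes were lower and 15.9% higher. With GC correction 3 were lower and 1 higher, where 7.54% of all genes were lower and 9.45% higher. CLASRP, a partner of CLK4, fell by 0.52 on the log2 scale (limma with the block, adjusted p = 0.0027), while the RS-rich cyclophilin PPIG and the exon junction factor CWC22 were both higher by 0.49 (adjusted p = 0.0044 and 0.0055). With GC correction CWC22 kept its call (adjusted p = 0.0204), and CLASRP and PPIG did not (adjusted p = 0.0749 and 0.106). SON, chosen after its values were seen because it shares the speckle scaffold with SRRM2, had a mean FPKM of 35.0 ± 5.78 (SD, n = 3) among controls and 32.6 ± 2.29 after lyophilization, a log2 difference of -0.09 without a call in either fit. Its transcript, at 8393 nt, is nearly as long as that of SRRM2 but has 46.9% GC. The difference between SON and SRRM2 was not tested.

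Of the kinases and import factors that act on RS domains, 10 of 11 passed the filter, with 2 lower and 1 higher under the block, a number close to the 30.7% of all genes called in either direction. DYRK1B, a kinase of the same wider family as the CLKs, had a log2 difference of -0.60 (limma with the block, adjusted p = 0.0073). CLK2, which phosphorylates SR proteins in the nucleus, had -0.35 (adjusted p = 0.0089), and SRPK1, which phosphorylates them in the cytoplasm, had 0.24 (adjusted p = 0.0292). CLK4 had 0.24 and no call. With GC correction CLK2 alone kept its call (adjusted p = 0.0339), while DYRK1B had an adjusted p of 0.0643 and SRPK1, at a log2 difference of 0.04, one of 0.615.

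In the exon junction complex, with which SRRM1 associates, CASC3 was lower with a log2 difference of -0.22 and MAGOH higher with 0.23 (limma with the block, adjusted p = 0.0333 and 0.0159), while ACIN1 had -0.17 and MAGOHB 0.25 without a call. SAP18, the other gene called higher of the 9 in this list (log2 difference 0.17, limma with the block, adjusted p = 0.049), falls outside the naming rule and was added after its values were seen. These 3 calls, 1 lower and 2 higher among 9 genes against 14.9% and 15.9% of all genes, ended with GC correction (adjusted p = 0.0651 for CASC3, 0.567 for MAGOH and 0.413 for SAP18). Of the 17 U1, U2 and 3′ splice site factors, 5 were lower and 2 higher with the block, where 14.9% of all genes were lower and 15.9% higher. With GC correction added, 4 were lower and 1 higher, where 7.54% of all genes were lower and 9.45% higher. SF1, the branch point binding protein, had -0.48 (adjusted p = 0.0005) and SF3B1, which holds the branch point in the U2 snRNP, had 0.36 (adjusted p = 0.0144), from a mean FPKM of 81.9 to 105. SNRPA1 had 0.27 (adjusted p = 0.0403). With GC correction SF1 kept its call (adjusted p = 0.0032), and SF3B1 and SNRPA1 did not (adjusted p = 0.11 and 0.0829). Among the 13 U5 and tri-snRNP proteins only PRPF8, the core of the spliceosome, was called, at -0.34 (adjusted p = 0.0023), with a call also after GC correction (adjusted p = 0.0098), and SART1, PPIH and SNRNP40 had -0.18, 0.12 and 0.12.

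The lists followed GC content as the 10 genes did, with a rho of -0.87 over the 70 genes, and 9 were called lower and 2 higher once the GC curve was subtracted, where 7.54% of all genes were called lower and 9.45% higher. None of the 70 differed by as much as SRRM2 in either direction, the outermost values being -0.71 in SF3A2 and 0.49 in CWC22. SRRM2 was listed for its measured difference and the 70 genes by function, so this comparison is a description and no test.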

How the data were processed

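Poly(A) RNA from 3 control and 3 lyophilized samples of GM12873 was prepared with the TruSeq v2 kit and read on a NextSeq. Per the submitters' processing notes and the methods, the authors mapped reads to hg19 (GRCh37) with TopHat2 2.0.7, kept unique alignments and computed FPKM with Cufflinks; CASAVA 1.4 is also listed. The deposited unit is FPKM, 1 table per sample. The Cufflinks version and the annotation are not given in the sources used here, and no counts were used, so no counting interval was computed.

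From the 24934 deposited records, the record with the highest mean FPKM was kept per symbol, 1622 small RNAs were removed, and genes whose mean FPKM exceeded 1 in either group entered limma 3.58.1 (R 4.3.3; trend; Benjamini-Hochberg) on log2(FPKM + 0.1), a scale that understates changes of low genes. The p-values measure the spread between these samples of 1 cell line, which may be technical. The design follows the condition only; the pairing comes from the labels, and the deviations of paired samples correlated at r = 0.716, 0.603 and 0.476. GC content and length came from the canonical transcript of GENCODE for GRCh37. The curves were loess fits (span 0.3, degree 2). Figures and other steps used Python 3.11.15. The fits were tested on simulated data.

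The 10 genes and the lists were chosen with earlier results of these data known. Named from each list were the 2 largest rises and 2 largest falls and any gene called without the block; the 5 genes most like SRRM2, and the 5 most like the SRSF median, were named by Pearson r over the 6 samples. Alternatives covered the pseudocount, filter, scaling, trend, block, GC and length correction and each replicate left out. Amino acid sequences were not used here, and 1 B-lymphoid marker is not reported here.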

Additional observations from a re-analysis of the deposited data

How the results depend on the processing

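SRRM2 was lower in the lyophilized samples in all 24 alternatives, with log2 differences from -1.10 to -0.59. Pseudocount and scaling alternatives kept its call. The alternatives use the same samples by which SRRM2 was listed, so they describe the processing and are no test of SRRM2. The number of genes called, 64, was 0 without a filter on low values, where 2069 genes had an unadjusted limma p under 0.05, and 0 with any 1 of the 6 samples left out, where 879 to 2098 did. With the pair as a replicate block it was 3423, with GC correction added 1846, and with GC and length correction 621. Leaving out pair 1, 2 or 3 under the block gave 2194, 5359 and 1264 genes. Of the 10 genes, 1 was called; the count was 0 without the filter and with any sample left out, 4 with the block, 3 with the block and GC correction, 2 with length added, and 3, 7 and 2 without pair 1, 2 or 3 under the block. Of the 70 list genes, 2 were called; the count was 0 without the filter or with a sample left out, 1 without the variance trend, 23 with the block, 11 and 7 with the corrections, and 16, 43 and 12 without pair 1, 2 or 3. The change of SRRM2 against the SRSF median, -1.21, was -0.82 with GC correction and -0.54 with length added, and -1.35 to -1.11 with samples left out; SRRM2 itself had -0.87 and -0.59, and -1.10 to -0.98 with samples left out. Among the 10 genes the block changed the calls of SRRM1, SRSF3 and SRSF11 and no other. Chosen after seeing the data were the block with median scaling (3666 genes, 4 of the 10 and 25 list genes called), the block with upper-quartile scaling (3540, 4 and 25), GC correction without the block (0 called, 804 at an unadjusted p under 0.05; SRRM2 -0.87, -0.82 against the SRSF median), and the block with GC content from the longest coding transcript (1949, 2 and 12; SRRM2 -0.88 and -0.83). Without control 1, 6 neighbours in the control order had ranges apart in place of 2. The causes were not tested. The tables hold no counts, so the counting error of single values is unknown.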

Other observations

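The genes whose pattern over the 6 samples was most like that of SRRM2 were MBD6, a methyl-CpG-binding domain protein, EPN1, an endocytic adaptor, SRCAP, a chromatin remodelling ATPase, PRR12, a proline-rich nuclear protein, and SMARCD1, a subunit of the BAF remodelling complex. Pearson's r was between 0.995 and 0.999 over the 6 samples, as a description without a test, since a large difference between the groups shared by 2 genes raises r by itself. PRR12 had an FPKM of 4.55, 4.98 and 5.55 in controls, against 1.88, 2.00 and 1.97 in their partners, a log2 difference of -1.32. MBD6 had 6.32, 7.01 and 7.65 against 3.19, 3.45 and 3.53, a log2 difference of -1.02. SRCAP had a log2 difference of -0.90, EPN1 of -0.58 and SMARCD1 of -0.28. All 5 had a lower level in every lyophilized sample than in any control, and transcripts of 53.0% to 66.7% GC.

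The genes most like the median profile of the 8 SRSF genes were TRA2A, an SR-like splicing regulator, DHX9, an RNA helicase, PFDN6, a prefoldin subunit, HNRNPK, an RNA-binding protein, and CIAPIN1, an iron-sulfur assembly factor, with r between 0.996 and 0.998. TRA2A had an FPKM of 25.4, 45.3 and 34.7 in controls, against 31.8, 46.4 and 38.8 in their partners. DHX9 had 25.1, 56.6 and 39.4 against 34.4, 57.8 and 46.4. In both genes sample 1 was the lowest and sample 2 the highest of each group, as in most of the SRSF genes. The log2 differences between the groups were 0.17 for TRA2A, 0.24 for DHX9, 0.14 for PFDN6, 0.16 for HNRNPK and 0.08 for CIAPIN1.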
